A study of Homo sapiens with 18 samples.

Results

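The nuclear-encoded structural subunits of the mitochondrial respiratory chain and ATP synthase were examined in RNA-seq of U87MG cells, a human glioblastoma line, with and without Erastin. The members were chosen by name and function: the protein-coding NDUFA, NDUFB, NDUFC, NDUFS and NDUFV subunits with NDUFAB1, SDHA to SDHD, the UQCR subunits with CYC1, cytochrome c (CYCS), the COX4 to COX8 subunits with NDUFA4, and the ATP5F1, ATP5M and ATP5P subunits. Assembly factors were left out. This gave 88 of the 58302 genes in the count table, of which 80 had enough counts to be tested. Control cells had grown without treatment in serum-containing medium, and treated cells received Erastin at 10 μM for 72 h. Erastin blocks the cystine importer system Xc- and induces ferroptosis. Each group had 2 RNA-seq libraries, called biological replicates in the series' design, and a vehicle for the control RNA was not given in the sources used here. U87MG is 1 cell line, so the spread between libraries is that between cultures of this line.

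The respiratory chain passes electrons from NADH and succinate through complexes I and II to ubiquinone, and from there through complex III and cytochrome c to complex IV, where oxygen is reduced to water. Complexes I, III and IV pump protons, and complex V, the ATP synthase, uses their return to make ATP. Complex II is built from nuclear genes alone, whereas complexes I, III, IV and V also hold subunits translated inside mitochondria from mitochondrial DNA. The promoters of many nuclear subunit genes are known to be bound by NRF1, by the ETS factor GABP and by YY1. Electron transport has been linked to lipid peroxidation in cells deprived of cystine.

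Total counts lay between 29412656 and 31513519 per library. The 88 subunit genes took between 0.659% and 0.684% of them. The labelled line was checked against markers. VIM had at least 48117 counts and CD44 at least 31559 in every library, although both fell after Erastin (log2 fold changes of -0.60 and -0.36), CDKN2A, CDKN2B and MTAP, which are deleted in this line, were listed at 0, and SOX2 reached 6 counts at most, although it is used as a glioma marker. Of 4 astrocyte markers S100B and AQP4 had at most 2 counts, ALDH1L1 had 6 to 22, and GFAP had 46 and 41 in control and 69 and 81 in Erastin libraries and did not pass the test (0.79, adjusted p = 0.0696, edgeR). Their summed counts were 54 and 56 against 91 and 89. NES fell from 1277 and 972 counts to 105 and 77. Of 3 neuronal markers, SYT1 and SNAP25 fell and RBFOX3 was near 0, so that their summed counts went from 1609 and 1783 in control to 385 and 406 in Erastin libraries. Of 3 endothelial markers, PECAM1 fell, VWF rose and CDH5 had at most 1 count, with sums of 142 and 192 against 49 and 65. The part of these marker changes in the subunit values was not tested. In bulk RNA, fewer cells of a kind and less RNA per cell cannot be told apart.

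Promoters of 4 members are shown as examples that carry the letters of the known regulators. Of their genes, ATP5F1C was called as a fall, and COX5B, CYCS and UQCRQ as rises. Other called members with such letters, in both directions, are not printed. RefSeq windows on GRCh38.p14, from 250 bases before to 50 bases after the transcription start, were matched for 70 of the 88 members. On either strand the NRF1 letters GCATGCGC were found in 15 of the 70 (21.4%), against 3.68% of all 27305 genes with a window. The ETS letters CCGGAAG were in 21 members (30.0%), against 12.2% of all genes, and the YY1 letters AAGATGGC in 12 (17.1%), against 3.52%. The lines below give the 250 bases before the start on the gene's own strand, with matches to the NRF1 and ETS letters in capitals. The stretch of ATP5F1C, the γ subunit of ATP synthase, lies at chr10:7787927-7788176 (+), COX5B of complex IV at chr2:97645812-97646061 (+), CYCS at chr7:25125261-25125510 (-) and UQCRQ of complex III at chr5:132866392-132866641 (+).
ATP5F1C: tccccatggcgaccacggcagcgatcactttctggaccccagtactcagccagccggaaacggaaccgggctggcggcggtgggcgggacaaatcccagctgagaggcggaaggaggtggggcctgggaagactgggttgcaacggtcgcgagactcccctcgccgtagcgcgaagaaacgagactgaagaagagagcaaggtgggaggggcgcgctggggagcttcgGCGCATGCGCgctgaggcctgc
COX5B: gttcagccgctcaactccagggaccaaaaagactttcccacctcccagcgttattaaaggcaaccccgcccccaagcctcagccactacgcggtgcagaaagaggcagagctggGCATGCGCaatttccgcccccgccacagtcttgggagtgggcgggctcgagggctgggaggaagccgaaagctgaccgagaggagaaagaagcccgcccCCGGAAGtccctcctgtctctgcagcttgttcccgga
CYCS: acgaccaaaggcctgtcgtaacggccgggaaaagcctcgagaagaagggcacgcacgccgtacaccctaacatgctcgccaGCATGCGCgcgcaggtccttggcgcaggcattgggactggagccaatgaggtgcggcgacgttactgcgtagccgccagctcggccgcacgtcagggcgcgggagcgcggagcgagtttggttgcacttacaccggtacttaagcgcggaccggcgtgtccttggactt
UQCRQ: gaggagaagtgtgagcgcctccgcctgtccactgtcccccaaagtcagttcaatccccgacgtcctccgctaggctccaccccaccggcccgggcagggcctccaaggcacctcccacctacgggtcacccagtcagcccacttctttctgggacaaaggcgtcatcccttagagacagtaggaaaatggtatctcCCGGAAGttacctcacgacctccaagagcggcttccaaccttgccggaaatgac
The ATP5F1C stretch holds 2 overlapping NRF1 matches, 1 on each strand, that start 22 and 20 bases before the transcription start, COX5B holds 1 NRF1 and 1 ETS match, CYCS 1 NRF1 match, and UQCRQ 1 ETS match.

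The subunit RNAs moved little and in both directions after Erastin. Of the 80 tested, 14 rose, 13 fell and 53 did not pass edgeR's quasi-likelihood test at a Benjamini-Hochberg adjusted p under 0.05. The rises made up 17.5% of the subunits, against 23.2% of all 16751 genes tested, and the falls 16.2%, against 23.7%. The median log2 fold change of the subunits was 0.05, against 0.00 over all genes, and 71 of the 80 lay within 0.5 of no change on the log2 scale. The largest called rise was 0.95, so that 0 subunits gained 1 or more on the log2 scale by edgeR or by DESeq2, where 6.24% of all genes did in edgeR. In the other direction 2 fell by that much, against 9.34% of all genes. The 2 were UQCRC2 and COX7A1, both with few counts, and neither was called by DESeq2. With library totals in place of the TMM scaling, 19 rose and 10 fell. Without Erastin replicate 1 the count of rises was 6, and without Erastin replicate 2 the count of falls was 6. Of the 24 called subunits followed through every alternative, 10 stayed called in all of them: NDUFB2, NDUFC2, SDHC, CYCS and ATP5F1E among the rises, and NDUFB6, SDHA, ATP5F1A, ATP5F1C and ATP5F1D among the falls. Where groups are said below not to overlap, the share of all genes tested with such groups was not computed. Subunits that did not pass, such as ATP5PB at -0.02, also had groups without overlap in CPM.

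**Figure D1:**
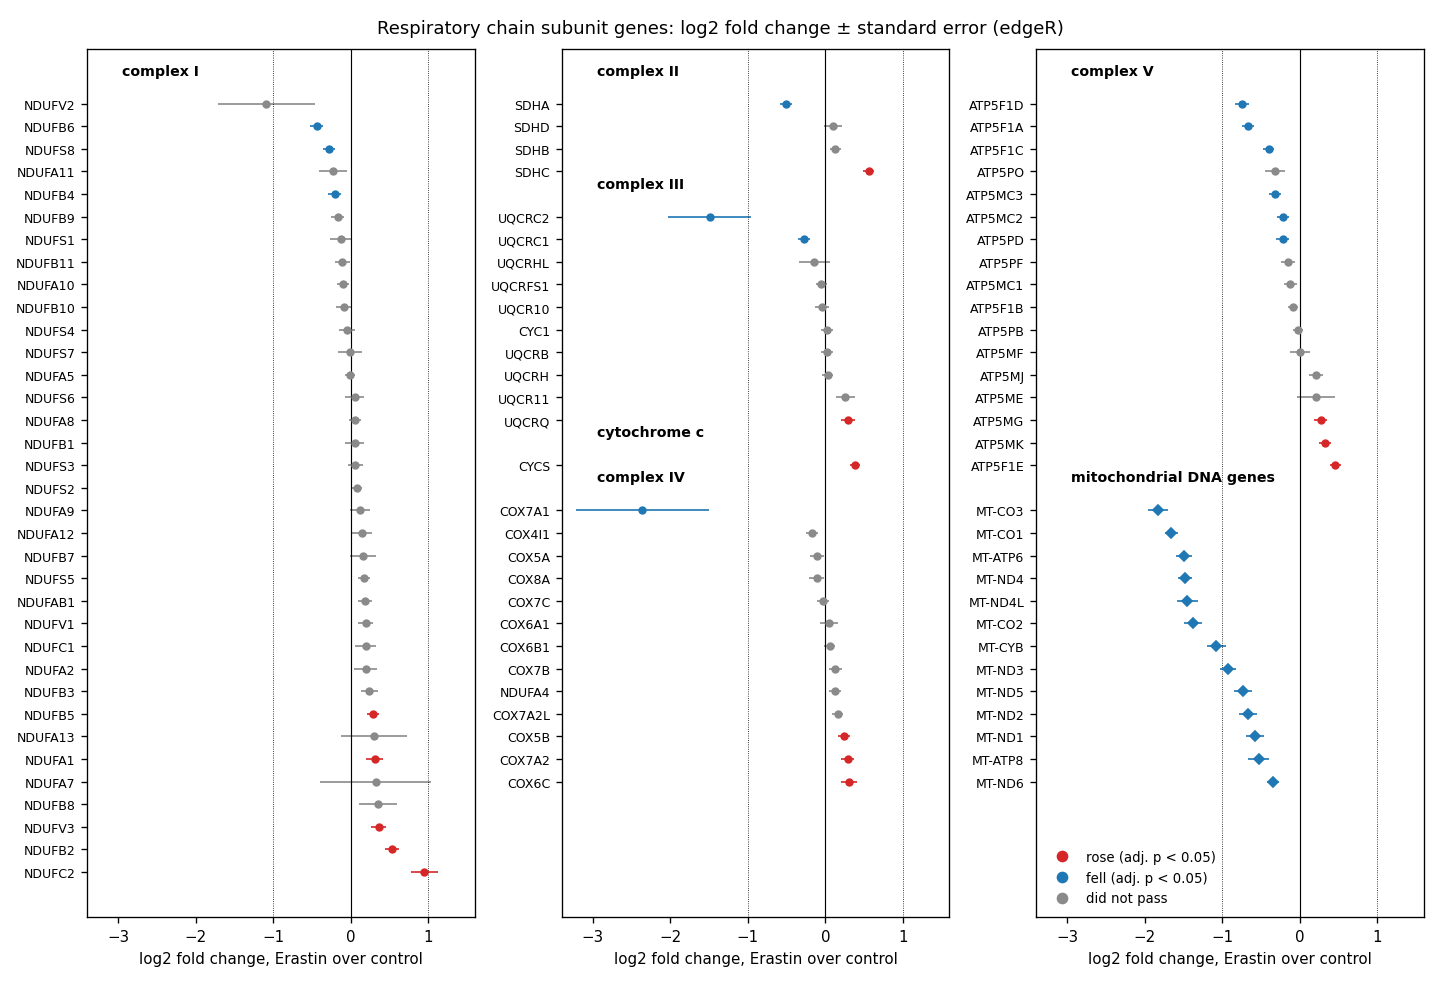
Log2 fold change of Erastin over control (horizontal axis) for the 80 tested nuclear subunits by complex (circles) and the 13 mitochondrial DNA subunits (diamonds), with bars of 1 standard error and dotted lines at a log2 fold change of 1 in either direction. Nuclear subunits lie on both sides of 0 with a median of 0.05, and all 13 mitochondrial genes lie below it.

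Complex I, the NADH dehydrogenase, had 37 member genes, of which 35 were tested, and its median log2 fold change was 0.08. It had 5 rises (14.3%, against 23.2% of all genes tested) and 3 falls (8.57%, against 23.7%). The 7 core subunits, which hold the flavin and the iron-sulfur clusters, showed 1 fall and a median of -0.01, and the 28 tested accessory subunits showed 5 rises, 2 falls and a median of 0.15. NDUFC2, an accessory subunit of the membrane arm (chr11:78068304-78080219), was counted 224 and 185 times in control and 418 and 370 times in Erastin libraries. Both treated libraries were above both controls, and NDUFC2 rose by a log2 fold change of 0.95 ± 0.17 (SE, adjusted p = 7.88e-04, edgeR). On 18.1% of its exon length it overlaps NDUFC2-KCTD14 and THRSP. NDUFB2, also of the membrane arm, had 1380 and 1259 counts in control and 1908 and 1882 in Erastin libraries, a rise of 0.53 ± 0.09 on the log2 scale (adjusted p = 3.73e-04, edgeR). Its exons overlap those of ADCK2, BRAF and NDUFB2-AS1 over 35.9% of their length, and the counting used no strand.

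The subunit NDUFB6, again of the membrane arm, moved the other way. It was counted 1734 and 1828 times in control and 1272 and 1346 times in Erastin libraries, with no overlap between the groups, and its RNA was 0.739 times the control level (log2 fold change -0.44 ± 0.08, adjusted p = 8.88e-04, edgeR). NDUFS8, a core subunit that carries iron-sulfur clusters, had 3740 and 3526 counts against 3092 and 2869 (log2 fold change -0.28 ± 0.08, adjusted p = 0.0133, edgeR), a call lost without Erastin replicate 2 (adjusted p = 0.185). NDUFV3, an accessory subunit of the NADH-binding module, rose from 1035 and 988 to 1301 and 1277 counts (0.36 ± 0.10, adjusted p = 0.00885, edgeR), a call lost without Erastin replicate 1 (adjusted p = 0.0852). The smallest called fall of the complex was NDUFB4 at -0.21, which DESeq2 did not call (adjusted p = 0.103), and which was lost with library totals (0.117) and without Erastin replicate 1 (0.370) or control replicate 1 (0.0687). NDUFB5 and NDUFA1 rose by 0.29 and 0.31, and NDUFA1 was not called by DESeq2 (adjusted p = 0.0652).

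Subunits at the entry of electrons were among those that did not pass the test. NDUFV1, which binds FMN and NADH, had 4278 and 3539 counts in control and 4429 and 4464 in Erastin libraries, and the lower control library set most of its difference (log2 fold change 0.19 ± 0.09, adjusted p = 0.103, edgeR). It was called without control replicate 1 (0.35, adjusted p = 1.04e-04), with library totals (0.24, adjusted p = 0.0310), without the low-count filter (adjusted p = 0.0458) and with a replicate block (adjusted p = 0.0306). NDUFS1, which holds further iron-sulfur clusters, had 778 and 794 against 586 and 845 counts, so that the control libraries lay between the treated ones (adjusted p = 0.478, edgeR). NDUFV2 had only 18 and 23 against 9 and 10 counts, and its log2 fold change of -1.09 ± 0.63 did not pass (adjusted p = 0.179, edgeR). Another gene overlaps 28.4% of the exon length of NDUFV2. NDUFB7 showed the widest gap between treated libraries among the well-counted subunits of the complex, with 2030 and 1334 counts against 1614 and 1429.

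Complex II, succinate dehydrogenase, is encoded by 4 genes, of which 2, SDHA and SDHC, were called, in opposite directions. With 1 rise and 1 fall among 4 genes, it was near the shares of all genes tested (23.2% rose and 23.7% fell). SDHA, the flavoprotein that oxidizes succinate (chr5:218241-256700), was counted 5491 and 4934 times in control and 3677 and 3583 in Erastin libraries. Both treated libraries lay below both controls, and SDHA fell by 0.51 ± 0.08 on the log2 scale (adjusted p = 2.08e-04, edgeR). SDHC, a membrane anchor that takes part in binding ubiquinone and heme (chr1:161314257-161375340), had 3237 and 3478 against 4634 and 5206 counts. It rose by 0.56 ± 0.07 (adjusted p = 4.88e-05, edgeR), again without overlap. SDHA counts per SDHC count stood at 1.70 and 1.42 without Erastin and at 0.793 and 0.688 with it (two-sided exact permutation p = 0.33, the smallest that 2 against 2 libraries allow). This ratio and the ATP synthase ratios were chosen after their values were seen.

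The iron-sulfur subunit SDHB had 3202 and 3240 against 3516 and 3517 counts (0.13 ± 0.07, adjusted p = 0.128, edgeR), and the second anchor SDHD 862 and 1051 against 967 and 1080 counts (0.10 ± 0.11, adjusted p = 0.479). SDHB was higher in both treated libraries but short of the threshold, which it passed with library totals (0.18, adjusted p = 0.0439, edgeR), and the SDHD groups overlapped. Some transcript sequence of this complex also occurs elsewhere in the genome, and the part of this in the counts was not tested. Of the 31-base stretches of the longest protein-coding SDHC transcript, 75.3% also occur elsewhere in the genome, and for SDHD and SDHA the shares were 66.6% and 49.3%. Reads that fell on more than 1 place were not counted. These transcripts have 1308, 1339 and 2693 bases, whereas 14160, 2838 and 8383 exon bases were counted for SDHC, SDHD and SDHA. The shares thus describe only part of the counted sequence.

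Complex III, the cytochrome bc1 complex, had 10 tested members and a median log2 fold change of -0.01. It had 1 rise (10.0%, against 23.2% of all genes tested) and 2 falls (20.0%, against 23.7%). UQCRC1, a large core protein on the matrix side, had 10043 and 9390 counts in control and 8281 and 7725 in Erastin libraries. The groups did not overlap, and UQCRC1 fell by 0.27 ± 0.08 (adjusted p = 0.0116, edgeR), a call lost without Erastin replicate 2 (adjusted p = 0.181). UQCRQ, a small accessory subunit whose promoter is printed above, rose from 1236 and 1321 to 1584 and 1514 counts (0.29 ± 0.09, adjusted p = 0.0205, edgeR). Without Erastin replicate 1 its adjusted p was 0.191, and without control replicate 1 it was 0.0586. The catalytic subunits did not pass: UQCRFS1, the Rieske iron-sulfur protein, was at -0.05 ± 0.07 (adjusted p = 0.564, edgeR) and cytochrome c1 (CYC1) at 0.02 ± 0.08 (adjusted p = 0.859), and in both the groups overlapped.

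UQCRC2, the other large core protein (chr16:21952660-21983660), had 66 and 299 counts in control and 81 and 47 in Erastin libraries. The 299 counts of control replicate 2 stood apart from the other 3 libraries, and control replicate 1 lay between the treated ones. The fitted fall of 1.49 ± 0.54 on the log2 scale (adjusted p = 0.0391, edgeR) was -0.05 without control replicate 2 (adjusted p = 0.940, edgeR) and -1.12 without Erastin replicate 2 (adjusted p = 0.117), and DESeq2 gave an adjusted p of 0.295. At 1.13 ± 1.01 CPM (counts scaled to 1000000 per library) per kilobase in control libraries (SD, n = 2), UQCRC2 was far below its partner UQCRC1 at 97.5 CPM per kilobase. Of its transcript stretches 1.91% occur elsewhere in the genome, and no other gene overlaps its exons.

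CYCS encodes cytochrome c, the soluble carrier between complexes III and IV (chr7:25120091-25125361). Control libraries held 5849 and 5889 of its counts, and Erastin libraries 7569 and 7655. The libraries of each group were close together, and CYCS rose by 0.38 ± 0.06 on the log2 scale, 1.30-fold (adjusted p = 4.26e-04, edgeR). Of its 31-base stretches 54.9% occur elsewhere, and cytochrome c is known for its many processed pseudogenes. As a group, 231 pseudogenes named for the subunits were in the table, and 69 of them had a count. Their summed level was 86.6 and 92.5 CPM in control and 67.8 and 63.3 CPM in Erastin libraries, lower in both treated libraries.

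Complex IV, cytochrome c oxidase, had 13 tested members of 18 and a median log2 fold change of 0.06. It had 3 rises (23.1%, near the 23.2% of all genes tested) and 1 fall (7.69%, against 23.7%). Its 3 rises were accessory subunits around the catalytic core, and all were small. COX6C rose by 0.31 ± 0.10 (adjusted p = 0.0245, edgeR), from 2050 and 2449 to 2949 and 2588 counts. COX7A2 rose by 0.29 ± 0.08 (adjusted p = 0.0133), from 1373 and 1485 to 1643 and 1838 counts, and COX5B by 0.24 ± 0.08 (adjusted p = 0.0287), from 1799 and 1693 to 1943 and 2159. In each the treated libraries lay above the controls, but COX6C was lost without Erastin replicate 1 (adjusted p = 0.274) or control replicate 1 (0.0594), COX7A2 without Erastin replicate 2 (0.111), and COX5B in DESeq2 (0.0615) and without Erastin replicate 1 (0.0661), Erastin replicate 2 (0.181) or control replicate 2 (0.128). COX4I1, the largest nuclear subunit, had 7290 and 7561 against 6883 and 6183 counts and did not pass (-0.17 ± 0.08, adjusted p = 0.0908, edgeR). Leaving out Erastin replicate 1 or control replicate 1 brought COX4I1 past the threshold, at -0.29 (adjusted p = 0.0344) and -0.19 (adjusted p = 0.0249), as did testing without the low-count filter (-0.18, adjusted p = 0.0429).

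Several complex IV subunits exist as tissue isoforms, and in U87MG cells the ubiquitous forms took nearly all counts. COX4I1 and COX6A1 took 100.0% of the counts of their pairs in all 4 libraries, because COX4I2, the lung and hypoxia isoform, and COX6A2, the heart and muscle isoform, were listed at 0. COX7A1, the muscle isoform of COX7A2, had 20 and 12 counts in control and 4 and 2 in Erastin libraries. The groups did not overlap, and edgeR's fit gave a fall of 2.36 ± 0.86 on the log2 scale (adjusted p = 0.0402). This call was lost in DESeq2 (adjusted p = 0.139), without the low-count filter (0.0553), with a replicate block (0.0521) and when any library was left out (0.0879 to 0.328, edgeR). Its share of COX7A1 and COX7A2 counts was 1.44% and 0.802% in control and 0.243% and 0.109% in Erastin libraries (two-sided exact permutation p = 0.33, the smallest possible). COX6B2 and COX7B2, known from testis, had at most 4 counts, and COX8C was listed at 0.

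NDUFA4, once assigned to complex I and now to complex IV, had 3277 and 3615 counts in control and 3491 and 4024 in Erastin libraries and did not pass (0.13 ± 0.08, adjusted p = 0.182, edgeR). Its paralogue NDUFA4L2, a known target of hypoxia-inducible factor, rose from 54 and 45 to 180 and 190 counts (log2 fold change 1.91 ± 0.26, adjusted p = 7.60e-05, edgeR). Of the counts of the pair, NDUFA4L2 took 1.62% and 1.23% in control and 4.90% and 4.51% in Erastin libraries (two-sided exact permutation p = 0.33). NDUFA4 thus kept over 95% of the pair in every library.

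Complex V, ATP synthase, had more falls than any other complex: 6 of its 17 tested members fell (35.3%, against 23.7% of all genes tested) and 3 rose (17.6%, against 23.2%), and the median log2 fold change was -0.12. Its summed level was 2628 and 2640.3 CPM in control and 2349 and 2254 CPM in Erastin libraries, lower in both treated libraries. The sums of the other complexes differed less, at 1574, 1528, 1640.4 and 1569 CPM for complex I and 1104, 1119.6, 1136 and 1151 CPM for complex IV, with control libraries given first. ATP5F1A carried most of the difference of complex V: without it the sums were 2068, 2082, 1975 and 1928 CPM, 0.940 times the control level in place of 0.874, where complex III stood at 0.952. The falls lay in the F1 head, which makes ATP in the matrix, in the c ring and in the stalk that joins the head to the membrane, and the rises in the smallest head subunit and in 2 small membrane subunits.

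In the F1 head, ATP5F1A, the α subunit (chr18:46080248-46104334), had 17122 and 17329 counts in control and 11184 and 10262 in Erastin libraries, and fell by 0.67 ± 0.07 (adjusted p = 1.48e-05, edgeR). ATP5F1D, the δ subunit of the central stalk (chr19:1241746-1244826), had 3986 and 3419 against 2243 and 2153 counts, and fell by 0.74 ± 0.09 (adjusted p = 3.24e-05). ATP5F1C, the γ subunit that rotates within the head, had 3798 and 4042 against 2962 and 2937 counts, and fell by 0.40 ± 0.07 (adjusted p = 5.64e-04). In all 3 genes both treated libraries were below both controls, but this also held for ATP5F1B, which was not called. ATP5F1B, the catalytic β subunit, is present in the head in the same number as α, yet did not pass (24217, 24406, 22471 and 22820 counts, -0.09 ± 0.06, adjusted p = 0.232, edgeR). ATP5F1E, the ε subunit (chr20:59025467-59032382), rose from 3193 and 3311 to 4370 and 4522 counts (0.46 ± 0.07, adjusted p = 1.37e-04, edgeR). TUBB1 overlaps 23.2% of its exon length.

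The ratios within the head separated the groups. ATP5F1A counts per ATP5F1B count were 0.707 and 0.710 in control and 0.498 and 0.450 in Erastin libraries. ATP5F1E counts per ATP5F1B count were 0.132 and 0.136 in control and 0.194 and 0.198 in Erastin libraries. Both ratios gave a two-sided exact permutation p of 0.33, the smallest possible with these libraries.

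**Figure D2:**
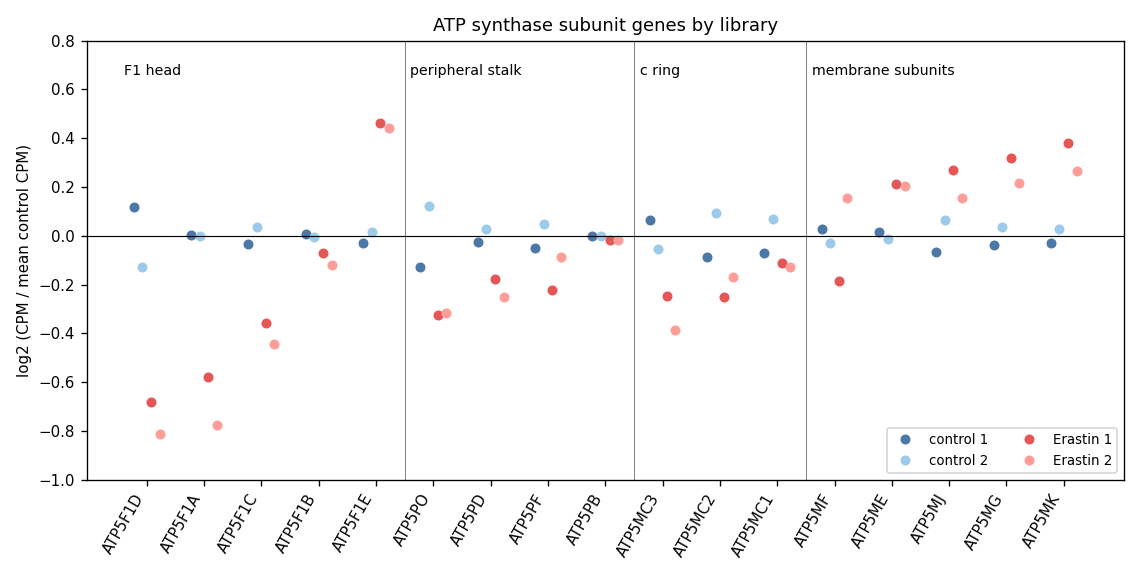
Log2 ratio of each library's CPM to the mean control CPM (vertical axis) for the 17 tested ATP synthase subunit genes, grouped by their place in the enzyme, with 1 point per library. ATP5F1D, ATP5F1A and ATP5F1C lie below the control points in both Erastin libraries, ATP5F1B stays near 0, and ATP5F1E, ATP5MG and ATP5MK lie above.

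The c ring through which protons pass is a single protein encoded by 3 genes that differ only in their import sequence. ATP5MC3 had 3447 and 3237 counts against 2723 and 2598 and fell by 0.32 ± 0.08 (adjusted p = 0.00492, edgeR), a call lost without Erastin replicate 2 (adjusted p = 0.0774). ATP5MC2 fell by 0.22 ± 0.08 (3933 and 4542 against 3427 and 3829 counts, adjusted p = 0.0393), which DESeq2 did not call (adjusted p = 0.0546). The ATP5MC2 call was also lost with library totals (0.109) and without Erastin replicate 1 (0.240), Erastin replicate 2 (0.0761) or control replicate 2 (0.190, edgeR adjusted p). ATP5MC1 did not pass (1841 and 2059 against 1749 and 1818 counts, -0.12 ± 0.08, adjusted p = 0.245). The shares of ATP5MC2 and ATP5MC3 overlapped between the groups. ATP5MC1 made up 20.0% and 20.9% of their counts in control and 22.1% and 22.0% in Erastin libraries (p = 0.33, two-sided exact permutation test), and ATP5MC2 42.7% and 46.2% against 43.4% and 46.4% (p = 0.667). ATP5MC3 made up the rest, 37.4% and 32.9% against 34.5% and 31.5% (p = 0.667, exact permutation test).

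Of the 4 peripheral stalk genes only ATP5PD was called (-0.22 ± 0.08, adjusted p = 0.0471, edgeR), and DESeq2 did not call it (adjusted p = 0.123). ATP5PO, the oligomycin sensitivity protein at the top of the stalk, was at -0.32 ± 0.12 (624 and 754 against 532 and 564 counts, adjusted p = 0.0517), and ATP5PB was at -0.02 ± 0.06. Among the small membrane subunits, which help ATP synthase to dimerize, ATP5MK rose from 1727 and 1830 to 2248 and 2182 counts (0.33 ± 0.08, adjusted p = 0.00498, edgeR) and ATP5MG from 1309 and 1399 to 1637 and 1603 (0.27 ± 0.09, adjusted p = 0.0230). Both calls were lost without Erastin replicate 1 (adjusted p = 0.0704 and 0.183, edgeR), and ATP5MG also without control replicate 1 (0.0751). ATP5IF1, the inhibitor of ATP hydrolysis by this enzyme and not a structural subunit, rose by 0.37 ± 0.09 (1097 and 1190 against 1394 and 1540 counts, adjusted p = 0.00557, edgeR).

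The called subunits differed in size. Coding length was taken as the longest coding sequence of each gene in GENCODE release 44. The 14 subunits that rose had a median of 105 codons (51 to 473), the 13 that fell 168 codons (79 to 664), and the 53 others 156 codons (56 to 741). Within ATP synthase the 3 that rose had 51, 58 and 103 codons, and the 6 that fell had at least 142. Across the 80 tested subunits Spearman's rho between coding length and log2 fold change was -0.402, within complex V it was -0.770 (17 genes), and over 12852 tested protein-coding genes it was -0.0917. These are descriptions across genes, which share the 4 libraries and are not independent replicates, and the measure was chosen after the values were seen. Promoter letters were counted by call as well. A gene with several windows was counted once if any of them matched. The NRF1 letters were found for 2 of 10 genes that rose, 3 of 10 that fell and 9 of 44 not called. For the ETS letters these counts were 5, 2 and 14, and for the YY1 letters 0, 1 and 9.

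Levels differed more between subunits than between groups. ATP5F1B was highest in control libraries, with 339.7 ± 1.93 CPM per kilobase of exon (SD, n = 2), followed by NDUFS5 at 141 CPM per kilobase. In Erastin libraries ATP5F1B was at 318 ± 7.61 and NDUFS5 at 158 ± 11.1. The kilobases are those of all annotated exons of a gene, so the order depends on the annotation as well. In control libraries NDUFS5 had 77.1 CPM over 548 bases, and ATP5F1A had 559 CPM over 10908 bases, or 51.2 CPM per kilobase. UQCRC1, UQCRH, NDUFB7, ATP5PB and COX6B1 followed at 97.5 to 92.5 CPM per kilobase in control libraries, too close together to be ordered. The lowest tested subunits in control libraries were NDUFA7, NDUFV2 and NDUFA13, at 0.230, 0.245 and 0.408 CPM per kilobase, and in Erastin libraries COX7A1, NDUFV2 and NDUFA7, at 0.0981, 0.114 and 0.288, although complex I holds each subunit in a fixed number. NDUFA7 and NDUFA13 share 33.5% and 21.0% of their exon length with other genes, and reads on more than 1 gene were not counted. NDUFA6 was listed at 0 in every library and NDUFA3 had 2 to 6 counts. Of their 31-base transcript stretches, 95.1% and 90.7% also occur on alternate scaffolds of the genome, and the part of this in their counts was not tested. With COX4I2, COX6A2, COX6B2, COX7B2, COX8C and ATP5MGL these made up the 8 subunits that could not be tested.

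**Figure D3:**
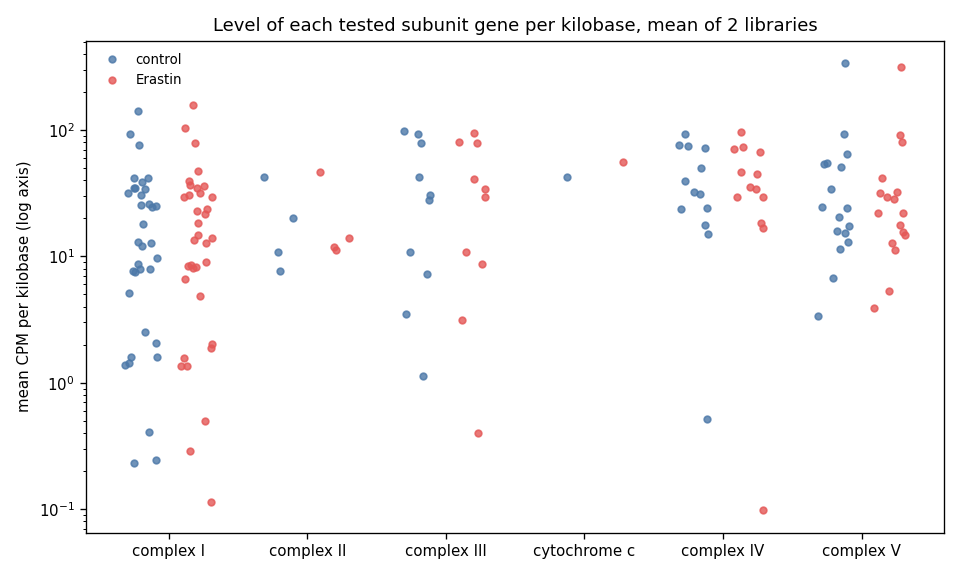
Mean CPM per kilobase of exon in control and Erastin libraries (log axis, 2 libraries each) for each of the 80 tested subunit genes, by complex. ATP5F1B stands highest at 339.7 in control and 318 in Erastin libraries, and the spread within a complex is far wider than the shift between groups.

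The nuclear subunits were next set beside the subunits of the same complexes made from mitochondrial DNA. All 13 mitochondrial genes fell, where 23.7% of all genes tested did. Of them 7 fell by at least 1 on the log2 scale (9.34% of all genes), and the median was -1.08. Without Erastin replicate 1, MT-ATP8 was no longer called (adjusted p = 0.0772, edgeR). MT-CO3 of complex IV showed the largest fall, from 231971 and 207057 to 49598 and 73724 counts (-1.83 ± 0.13, adjusted p = 4.13e-07, edgeR), and MT-ND6 of complex I the smallest, from 22449 and 19615 to 15667 and 17452 (-0.34 ± 0.08, adjusted p = 0.00364). MT-ND6 is read from the opposite strand to the other 12, and counts without strand cannot separate it from antisense RNA. Of the transcript stretches of the mitochondrial genes, between 4.11% (MT-ND3) and 69.7% (MT-CO1) also occur elsewhere in the genome. MT-ATP8 shares 22.2% of its exon length with MT-ATP6. Reads on several places or genes were not counted, and the part of this in the mitochondrial counts was not tested. By complex the medians were -0.73 for complex I (7 genes), -1.66 for complex IV (3 genes) and -1.01 for complex V (2 genes). The 1 mitochondrial gene of complex III, MT-CYB, was at -1.08, and the 2 of complex V, MT-ATP6 and MT-ATP8, were at -1.49 and -0.53. The medians of the nuclear subunits were 0.08 for complex I, -0.01 for complex III, 0.06 for complex IV and -0.12 for complex V.

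Summed over complexes I, III, IV and V, the mitochondrial subunits stood at 73416 and 66357 CPM in control and 24370.1 and 31273 CPM in Erastin libraries, and the nuclear subunits at 6252 and 6191 against 6041 and 5818 CPM. Nuclear counts per mitochondrial count came to 0.0852 and 0.0933 without Erastin and to 0.248 and 0.186 with it, a 2.43-fold higher mean. Both treated libraries were above both controls, and Erastin replicate 1 was above replicate 2. The ratio was 2.08-fold to 2.78-fold higher when single libraries were left out, and 2.52-fold higher with counts per kilobase. Complex IV showed the widest shift at 3.18-fold, followed by complex V at 2.48-fold, complex I at 2.17-fold and complex III at 2.09-fold. As a ratio within a library it does not depend on the scaling, and it does not say which side changed. The part of uncounted reads on several places in the ratio and in the order of the complexes was not tested. With mitochondrial genes left out of the fit, the subunit counts of 14 rises and 13 falls were as before.

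**Figure D4:**
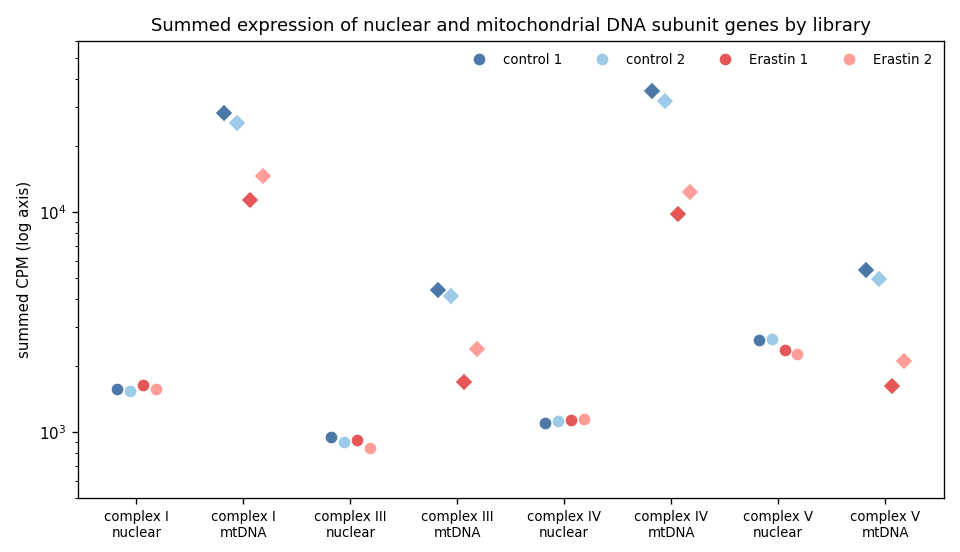
Summed CPM (log axis) of nuclear (circles) and mitochondrial DNA (diamonds) subunit genes of complexes I, III, IV and V, with 1 point per library. The nuclear sums of complex V are lower in both Erastin libraries (2349 and 2254 against 2628 and 2640.3 CPM), and the mitochondrial sums are lower in every complex.

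Assembly factors, the proteins that build these complexes without staying in them, rose more often than they fell. Of 54 tested, 23 rose (42.6%, against 23.2% of all genes tested), 3 fell (5.56%, against 23.7%) and 28 did not pass, with a median log2 fold change of 0.21. All 6 factors of complex III rose, by 0.40 to 0.87, among them UQCC3 (92 and 90 against 166 and 164 counts) and BCS1L, which inserts the Rieske protein (640 and 672 against 907 and 822 counts). For complex IV 8 of 21 tested factors rose, led by COX19 (298 and 341 against 586 and 648 counts, 0.96 ± 0.13, adjusted p = 9.96e-05), COX16 (120 and 88 against 191 and 166 counts, 0.79 ± 0.24, adjusted p = 0.0199) and COA3 (858 and 906 against 1531 and 1391 counts, 0.74 ± 0.10), and SURF1 and SCO2 were listed at 0. In complex I 7 of 19 rose and 3 fell: NDUFAF8 rose from 805 and 692 to 1907 and 1772 counts (1.31 ± 0.11, adjusted p = 1.54e-06, edgeR), and FOXRED1, COA1 and ACAD9 fell by 0.88, 0.75 and 0.36. COX19, COX16, COA3, UQCC3, BCS1L, FOXRED1, COA1 and ACAD9 were named after their values were seen.

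The 12 regulators of the subunit genes were mixed, with 2 rises (16.7%, against 23.2% of all genes tested) and 4 falls (33.3%, against 23.7%). NRF1 (502 and 431 against 530 and 584 counts, 0.26 ± 0.13, adjusted p = 0.127, edgeR), GABPA (0.07 ± 0.09, adjusted p = 0.546) and TFAM, which packages and transcribes mitochondrial DNA (0.06 ± 0.09, adjusted p = 0.596), did not pass. The coactivator PPARGC1A fell from 303 and 345 to 94 and 135 counts (-1.50 ± 0.21, adjusted p = 9.66e-05, edgeR), with PPARGC1B at -0.95, YY1 at -0.36 and the nuclear receptor ESRRG at -1.78 among the 4 falls. Its relative ESRRA rose from 2380 and 1829 to 3460 and 3035 counts (0.63 ± 0.12, adjusted p = 0.00109, edgeR), as did GABPB2, out of 12 regulators in all.

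**Figure D5:**
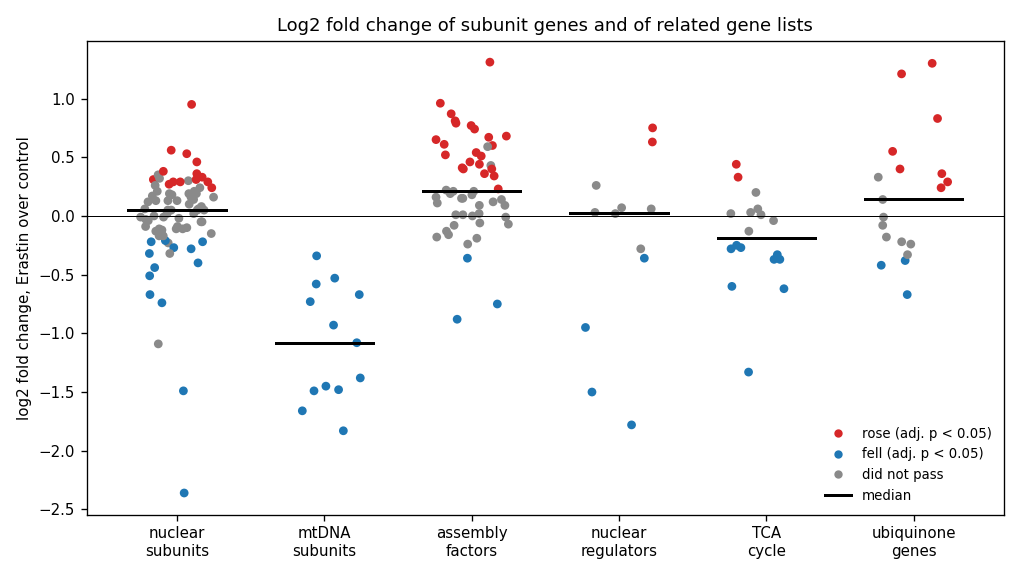
Log2 fold change of each tested gene in the nuclear subunits, the mitochondrial DNA subunits and 4 related lists, coloured by its call, with a bar at each list's median. The nuclear subunits centre at 0.05, the mitochondrial DNA subunits at -1.08, the assembly factors at 0.21 and the TCA cycle genes at -0.19.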

How the data were processed

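Total RNA of U87MG cells was sequenced in 4 libraries. The authors deposited raw counts of reads per gene, with no normalization. Per the file headers they came from featureCounts 2.0.3 on the Ensembl release 90 annotation of GRCh38, and the submitters' processing notes name HISAT2 2.1.0 and featureCounts 2.0.4. Both reads of a pair were counted singly and without strand, and reads on several places or genes were left out. One deposited column was handled as estimated counts and rounded, which changed 0 values. Pairs counted singly make reads less independent than their number.

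The model was fitted with edgeR 4.0.16 under R 4.3.3. Low genes were removed by filterByExpr (minimum count 10), which left 16751, libraries were scaled by TMM, and p-values from the quasi-likelihood test were adjusted by Benjamini-Hochberg over all of them. Genes past a log2 fold change of 1 were counted too. The biological coefficient of variation was 10.3%, and with 2 libraries per group the p-values lean on variances shared across genes. Exact permutation tests (scipy 1.17.1) cannot fall below p = 0.33. CPM are counts scaled to 1000000 per TMM-scaled library. The study's methods name DESeq2, which was run as an alternative (DESeq2 1.42.0) with RLE factors, library totals, other filters, a replicate block and each library left out.

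The members, lists and tests were chosen with earlier results of these data known. Named subunits were the 3 largest called rises and falls of complexes I, III, IV and V, all those past the fold, a set of catalytic subunits, isoforms and mitochondrial DNA subunits, and context genes past both thresholds; others were named after their values were seen. Same-numbered libraries did not deviate together (correlation 0.0203). Shared 31-base stretches were computed on GRCh38 from each gene's longest protein-coding transcript in GENCODE release 44. Overlapping exons were taken from the annotation of the deposited counts, and promoters came from RefSeq. ChIP-seq and HiChIP samples were not analysed here.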

Additional observations from a re-analysis of the deposited data

How the results depend on the processing

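Counts of called subunits, 14 higher and 13 lower, ranged from 6 to 15 and from 6 to 13 when each library was left out, DESeq2 called 8 lower, and library totals gave 19 higher and 10 lower. Past the fold, 0 were higher, but 1 (NDUFC2) with library totals and 0 to 1 with a library left out. The 2 lower became 0 in DESeq2, 1 with at least 10 counts in every library, 1 with no low-count filter, 1 with a replicate block, and 0 to 1 with a library left out. The same replicate numbers did not pair the libraries, and the block changed only the calls of COX7A1 and NDUFV1 (adjusted p = 0.0521 and 0.0306) among the genes named.

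With library totals the median log2 fold change was 0.13 for complex I, 0.43 for cytochrome c, 0.11 for complex IV and -0.07 for complex V, and with at least 10 counts in every library it was 0.09 for complex IV. Leaving out libraries gave 0.04 to 0.11 for complex I, 0.06 to 0.18 for complex II, -0.06 to 0.06 for complex III, 0.35 to 0.41 for cytochrome c, 0.04 to 0.09 for complex IV and -0.19 to -0.11 for complex V. The change in share was 0.502 percentage points for ATP5MC2 and -2.15 for ATP5MC3, and ranged from -1.26 to 2.26 (-1.03 without Erastin replicate 2) and from -4.39 to 0.0883 with a library left out. Signs that turned with a library left out belonged to genes that were not called: NDUFS1 ranged from -0.38 to 0.08, SDHD from -0.02 to 0.23, CYC1 from -0.07 to 0.10, UQCRHL from -0.36 to 0.05 and TFAM from -0.02 to 0.14. The cause was not tested. Of 60 named genes tested, 46 were called and 31 of these stayed called in every alternative. With 2 libraries per group, differences of the size seen in most subunits cannot be placed on one side of the threshold, and counts under about 100 carry wide intervals.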

Other observations

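Genes that feed the chain were lower more often than higher. Of 18 genes of the TCA cycle and pyruvate dehydrogenase, 9 fell, 2 rose and 7 did not pass, and the median log2 fold change was -0.19. Of all genes tested 23.7% fell and 23.2% rose. IDH2, the NADP-dependent isocitrate dehydrogenase of mitochondria, fell from 2215 and 1934 to 857 and 779 counts (-1.33 ± 0.11, adjusted p = 1.05e-06, edgeR). Fumarase (FH, 3242 and 3760 against 2284 and 2307 counts) and SUCLG1 of succinyl-CoA ligase (2891 and 2868 against 1875 and 1855) fell by 0.60 and 0.62, the enzymes on either side of succinate dehydrogenase. IDH3B, a subunit of the NAD-dependent isocitrate dehydrogenase, rose by 0.44.

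Of 19 tested genes of ubiquinone synthesis and of other dehydrogenases that reduce it, 8 rose (42.1%, against 23.2% of all genes tested) and 3 fell (15.8%, against 23.7%). COQ10A (240 and 309 against 636 and 711 counts) and COQ10B (1295 and 1350 against 3034 and 3038), ubiquinone-binding proteins, rose by 1.30 ± 0.15 and 1.21 ± 0.08 (adjusted p = 1.89e-05 and 1.32e-07, edgeR). COQ7 rose by 0.83, and COQ2, COQ8A and ETFB fell by 0.67, 0.42 and 0.38. FH, SUCLG1, IDH3B, COQ7, COQ2, COQ8A and ETFB were named after their values were seen.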
